A study of Rattus norvegicus with 32 samples.

Results

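The uterus of rats given the highest dose of bisphenol A (BPA), 25000 µg per kg body weight per day, was compared with that of rats given the lowest, 2.5 µg per kg per day, a 10000-fold range of dose. The comparison used the 8 sequenced libraries that the labels place in these groups, 4 per dose, out of 32 in the series, and all genes were compared between them. Every animal of both groups was a Sprague-Dawley rat of the NCTR colony. Dams of both groups were gavaged from gestation day 6 and their pups themselves from postnatal day 1 up to PND365, the age at which the uterus was studied, in a vehicle of 0.3% carboxymethylcellulose. The other 24 libraries (vehicle control, BPA at 25, 250 and 2500, and ethinyl estradiol at 0.05 and 0.5 µg per kg per day, 4 each) entered the estimate of spread but not the contrast. No separate animals, litters or stages of the estrous cycle are named in the labels, so the p-values reflect the scatter of these libraries, which may be technical.

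BPA is a monomer of polycarbonate plastics that binds the estrogen receptors. The uterus consists of a smooth muscle wall and an endometrium of stroma, glands and a lining epithelium. Estrogen drives its epithelium to divide, and a prolonged estrogen action can turn the simple lining into a stratified, keratin-rich one. Retinoic acid, made from vitamin A by aldehyde dehydrogenases and broken down by CYP26 enzymes, is known as a factor that keeps the lining simple. Motile cilia, which beat on some cells of the uterine and oviductal lining, are built by a program that the transcription factors FOXJ1 and RFX control.

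Total counts were 13098736 to 14769896 per library at BPA 2.5 and 16130546 to 23078311 at BPA 25000, so that 3 counts stood for 0.203 to 0.229 CPM and 0.13 to 0.186 CPM. CPM are counts brought to a common library size by the TMM method. Genes that the uterus is known to express were present in all 8 libraries. The smooth muscle actin gene Acta2 was between 3452 and 8899 CPM. The estrogen receptor gene Esr1 was between 131 and 177 CPM, and the progesterone receptor gene Pgr between 72.1 and 209 CPM. These genes do not mark uterus alone, so the mix of tissues in a library was not tested by them. Some libraries stood apart. Across genes, BPA 2.5 libraries 1 and 3 had a median correlation of 0.892 and 0.911 with the other 31 libraries and of 0.975 with each other. BPA 2.5 libraries 2 and 4 were at 0.949 and 0.95. BPA 25000 library 3 was at 0.926 and the other three at 0.954 to 0.956, with libraries 2 and 4 correlated at 0.987. Library numbers follow the order of deposit and name a library only.

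Of 13312 genes tested by edgeR's quasi-likelihood test, 337 (2.53%) had an adjusted p under 0.05. Of these, 273 (2.05%) were lower and 64 (0.481%) higher at BPA 25000 than at BPA 2.5. At an unadjusted p under 0.05 there were 2322 genes (17.4%), 1494 lower (11.2%) and 828 higher (6.22%). The groups' libraries did not overlap for 684 genes (5.14%), 372 lower (2.79%) and 312 higher (2.34%). Most of the genes called lower followed the split within BPA 2.5: in 147 of the 273 (53.8%), both libraries 1 and 3 were over 2 times both libraries 2 and 4, against 6.5% of all genes tested and 0 of the 64 called higher. With those libraries left out, a fit chosen after the data were seen called 27 genes lower and 47 higher, 21 and 12 of them among the original calls.

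The number of calls varied with single libraries. Without BPA 2.5 library 1, without BPA 25000 library 1 or without BPA 25000 library 4, edgeR called 0 genes (1502, 1816 and 2101 at an unadjusted p under 0.05), so no gene could hold in more than 5 of the 8 fits that left out 1 library. Without BPA 25000 library 2 it called 8, and without BPA 2.5 library 3 it called 55. The calls numbered 686 and 807 without BPA 2.5 library 2 or 4, and 361 without BPA 25000 library 3. With only these 2 groups in the fit edgeR called 0 genes (1371 at an unadjusted p under 0.05), whereas DESeq2 over all groups called 722, including 64 and 270 of the genes called higher and lower here, and limma voom called 3417. For some genes the log2 fold changes moved less than the calls. Over the 8 fits without 1 library Krt5 ran from -5.04 to -4.12, Dph3 from -1.23 to -0.94 and Vtn from 1 to 1.26. Others moved more, such as Ccl9 from -1.85 to -0.84, Neu2 from -2.08 to -1.18 and Rps27 from 0.99 to 1.88. Of the calls, 64 of the 64 higher and 195 of the 273 lower kept their sign in every alternative run that gave them a fold change.

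**Figure D1:**
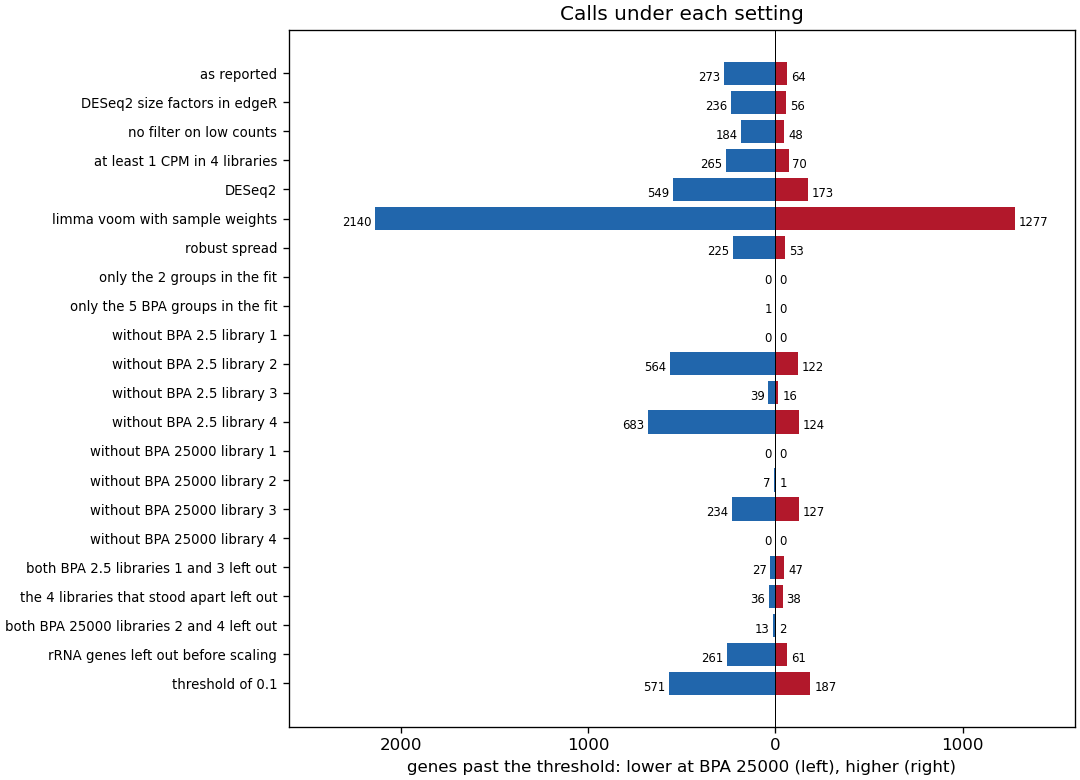
Number of genes past the threshold under each setting, lower at BPA 25000 to the left and higher to the right, with the counts printed at the bars. The counts run from 0 in 4 settings to 2140 lower and 1277 higher with limma voom, and among settings with any call the lower calls exceed the higher ones except where the BPA 2.5 libraries 1 and 3 or the 4 libraries that stood apart are left out.

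**Figure D2:**
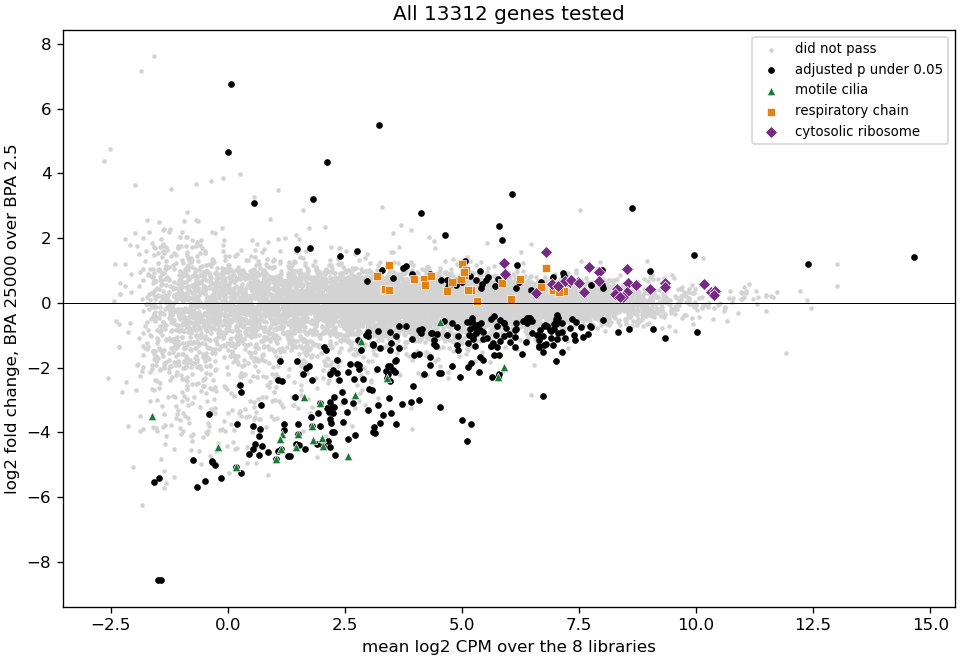
Each point is 1 of the 13312 genes tested: its mean log2 CPM over the 8 libraries (horizontal) against its log2 fold change, BPA 25000 over BPA 2.5 (vertical). Black points had an adjusted p under 0.05, 273 below 0 and 64 above. Triangles, squares and diamonds mark the motile cilia, respiratory chain and cytosolic ribosome genes: the 22 cilia genes lay below 0, the 29 respiratory chain and 30 ribosome genes above it.

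Krt5 and Krt10, of the keratin genes of stratified epithelium, were called lower at the high dose. Krt5 (NCBI Gene 369017), the keratin of basal cells in stratified epithelium, was at 10.96, 24.4, 14.99 and 20.01 CPM in BPA 2.5 libraries 1 to 4 and at 0.433, 0.789, 1.81 and 0.373 CPM in BPA 25000 libraries 1 to 4. All 4 low-dose libraries lay above all 4 high-dose ones, including the 2 pairs into which the low-dose group otherwise split. The rule for named genes demands such a lack of overlap, so it is no separate support. This holds also for Pkp1, Ttll10, Scn9a, Cyp26a1, Cox7b and Vtn below. Krt5 differed by a log2 fold change of -4.38 (SE 1.17, adjusted p = 0.0463), means of 17.6 ± 5.86 and 0.852 ± 0.665 CPM (SD, n = 4). It stayed past the threshold in 3 of the 8 fits without 1 library, and leaving out BPA 2.5 libraries 1 and 3 together gave a log2 fold change of -4.69 (adjusted p = 0.0942).

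Krt14, the usual partner of Krt5 in the keratin filament, was likewise above the high dose in all 4 low-dose libraries and just missed the threshold. It was at 2.92, 3.23, 3.198 and 4.02 CPM at BPA 2.5 and at 0, 0.507, 0 and 0.0534 CPM at BPA 25000, with 10 counts in all in the latter group (log2 fold change -4.58 with SE 1.3, adjusted p = 0.0532). Krt10, a keratin of the cells above the basal layer, was lower at 2.43, 2.54, 2.63 and 2.72 CPM against 9.57, 4.31, 9.395 and 4.91 CPM (log2 fold change -1.45 with SE 0.37, adjusted p = 0.0392), and here the high values were those of BPA 2.5 libraries 1 and 3, without which the log2 fold change was -0.81 (adjusted p = 0.484). Pkp1, a desmosomal plakophilin of stratified epithelium, was at 70.8, 4.08, 43.1 and 10.1 CPM against 3.08, 3.55, 2.63 and 3.52 CPM (log2 fold change -3.32 with SE 0.71, adjusted p = 0.0243). Pkp1 was highest in BPA 2.5 libraries 1 and 3, but by the rule libraries 2 and 4 also lay above every BPA 25000 library. The log2 fold change of Pkp1 without libraries 1 and 3 was -1.12 (adjusted p = 0.579).

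Of 16 tested genes of a squamous epithelium list, 2 were called lower (Krt5 and Krt10), 0 higher, and 15 lay below 0. Over all genes tested 2.05% were called lower, and 6731 of 13312 lay below 0. The list's median difference in mean log2 CPM was -1.14, beside -0.005 over all genes tested. The summed CPM of the list was 97.7 to 123 in the 4 BPA 2.5 libraries and 31.1 to 47.6 in the 4 BPA 25000 libraries, without overlap. In bulk tissue, fewer cells of a type and less RNA per cell cannot be told apart.

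Of 22 motile cilia genes tested, 9 were called lower at the high dose, and their high values came from 2 libraries. Foxj1 (NCBI Gene 116557), the transcription factor of the cilia program, was at 95.8, 0.308, 73.6 and 0.892 CPM at BPA 2.5, against 0.996, 4.45, 1.65 and 2.401 CPM at BPA 25000. Libraries 1 and 3 of the low dose stood far above all others, and libraries 2 and 4 lay below every high-dose library. The log2 fold change of -4.17 (SE 1.22, adjusted p = 0.0596) missed the threshold. Of the 32 genes listed, 22 were in the table and all were tested. Of these, 21 had an unadjusted p under 0.05 in the lower direction, and the median difference in mean log2 CPM was -1.85, or 1.06 without BPA 2.5 libraries 1 and 3. Over all genes tested 2.05% were called lower, and 11.2% were lower at an unadjusted p under 0.05.

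Among the genes called was Drc1, a part of the nexin-dynein regulatory complex between the axoneme's microtubules, at 44.9, 0.539, 34.98 and 0.574 CPM against 0.433, 1.35, 1.04 and 0.694 CPM (log2 fold change -4.52 with SE 1.1, adjusted p = 0.0339). Dnai1 and Dnai2 encode intermediate chains of the outer dynein arm, the motor of the beat. Dnai2 was at 51.6, 0.7698, 43.2 and 0.382 CPM against 0.7798, 2.31, 0.768 and 1.92 CPM (log2 fold change -4.05 with SE 1.08, adjusted p = 0.0441), and Dnai1 had a log2 fold change of -5.06 (SE 1.41, adjusted p = 0.0493). Dnaaf1, which helps assemble dynein arms in the cytoplasm, had one of -4.82 (SE 1.21, adjusted p = 0.0371), Cfap52 one of -3.1 (SE 0.76, adjusted p = 0.0338) and Ccdc39, a ruler of axoneme spacing, one of -2.28 (SE 0.46, adjusted p = 0.0243). Spag6l, a central apparatus protein, was at 109.5, 0.231, 75.9 and 0.319 CPM against 1.86, 3.72, 0.494 and 3.84 CPM and missed the threshold (log2 fold change -4.23 with SE 1.21, adjusted p = 0.0557). Every one of these genes had its highest values in BPA 2.5 libraries 1 and 3. With those libraries left out, 0 of the 22 cilia genes were called and the median of their fitted log2 fold changes went from -4.05 to 1.37: Foxj1 was then at 1.98 (adjusted p = 0.631), Drc1 at 0.68 (adjusted p = 0.892), and Ccdc39 kept its sign at -0.59 (adjusted p = 0.608).

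The promoters of 3 of these genes are printed because they share a short word, the core of the RFX binding motif. Each line gives the 200 bases before the start of the gene, from RefSeq on build GRCr8, which is not the build the reads were mapped to. Capitals mark GTTGCC on either strand (GGCAAC where it is read from the other strand). The Drc1 window is chr6:31779257-31779456 on the minus strand, the Dnai2 window chr10:100258822-100259021 on the plus strand and the Spag6l window chr11:97677640-97677839 on the plus strand.
Drc1: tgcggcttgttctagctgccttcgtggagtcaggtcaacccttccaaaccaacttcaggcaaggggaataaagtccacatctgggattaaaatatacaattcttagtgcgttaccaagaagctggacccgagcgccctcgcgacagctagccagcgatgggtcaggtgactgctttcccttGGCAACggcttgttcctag
Dnai2: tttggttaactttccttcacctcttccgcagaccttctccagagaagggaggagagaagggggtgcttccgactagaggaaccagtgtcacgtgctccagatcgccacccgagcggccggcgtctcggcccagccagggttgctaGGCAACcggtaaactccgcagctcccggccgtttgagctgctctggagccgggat
Spag6l: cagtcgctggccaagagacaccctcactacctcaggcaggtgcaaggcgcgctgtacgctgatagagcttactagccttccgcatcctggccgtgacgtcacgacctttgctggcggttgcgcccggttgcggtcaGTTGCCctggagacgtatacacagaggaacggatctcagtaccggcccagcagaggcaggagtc

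In windows of 300 bases, 250 before to 50 after the start, GTTGCC on either strand was in 9 of the 17 cilia list promoters that RefSeq gave (52.9%), in 12.2% of all 33469 promoters and in 13% of those of tested genes. It was in 46 of 219 promoters of genes called lower (21%) and in 5 of 46 of genes called higher (10.9%). A match describes letters, not a bound site.

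Markers of other cell types moved with the cilia genes in part. Aqp4, a water channel gene placed on an oviduct list, was at 145, 1.39, 87.3 and 1.34 CPM against 4.12, 4.903, 1.87 and 2.83 CPM (log2 fold change -4.09 with SE 1.08, adjusted p = 0.0438), again high in BPA 2.5 libraries 1 and 3. It was the 1 of 8 tested oviduct genes that was called, beside 2.53% of all genes called in either direction. The summed CPM of that list was 212 to 574 at BPA 2.5 and 189 to 377 at BPA 25000, and Ovgp1 was not analysed here. Some fat genes had the same high libraries. Gpd1, which makes the glycerol backbone of lipids, was at 39.5, 5.62, 61.6 and 10.6 CPM against 4.16, 7.66, 9.99 and 6.24 CPM (log2 fold change -2.07 with SE 0.57, adjusted p = 0.0495). Plin1, a coat protein of the fat droplet, was at 4.63, 0.385, 22.1 and 0.5099 CPM against 0.6498, 0.958, 0.494 and 1.17 CPM and did not pass (adjusted p = 0.14). The fat hormone gene Adipoq did not follow, at 126, 201, 222 and 141 CPM against 70.8, 139.6, 515 and 233 CPM. Of 17 fat genes, 1 was called lower, beside 2.05% of all genes tested, and 10 lay below 0 and 7 above. The fat list's median difference was -0.49, or 0.42 without BPA 2.5 libraries 1 and 3. Its summed CPM was 572 to 1175 at BPA 2.5 and 805 to 1005 at BPA 25000. The part of oviduct, cilia-bearing or fat tissue in these differences was not tested.

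Other genes lower at the high dose also had their highest values in BPA 2.5 libraries 1 and 3. Ttll10, a tubulin-modifying ligase gene that overlaps the microRNA genes Mir200a, Mir200b and Mir429, was at 68.6, 2.08, 40.3 and 2.74 CPM against 1.78, 2.03, 1.59 and 1.76 CPM (log2 fold change -3.98 with SE 0.8, adjusted p = 0.0243). Scn9a, a voltage-gated sodium channel, was at 85.04, 14.6, 42.4 and 7.52 CPM against 2.56, 6.31, 3.896 and 6.88 CPM (log2 fold change -2.93 with SE 0.69, adjusted p = 0.0291). By the rule for named genes the groups did not overlap, and libraries 2 and 4 lay nearer to the high dose than libraries 1 and 3 did. Without libraries 1 and 3 the log2 fold changes of Ttll10 and Scn9a were -0.4 and -1.15 (adjusted p = 0.896 and 0.583). Pzp, a protease-trapping plasma protein related to alpha-2-macroglobulin, was at 31.6, 4.696, 20.1 and 9.43 CPM against 3.29, 4.34, 1.81 and 3.52 CPM (log2 fold change -2.34 with SE 0.49, adjusted p = 0.0243). Zbtb7c, a zinc finger protein, was at 20.3, 7.005, 15.3 and 6.76 CPM against 3.34, 2.76, 4.61 and 2.67 CPM (log2 fold change -1.88 with SE 0.41, adjusted p = 0.0243), and Pnma8b had a log2 fold change of -1.89 (SE 0.46, adjusted p = 0.0337). Cyp2s1, a cytochrome P450 of epithelia, was at 9.25, 1.54, 8.46 and 1.98 CPM against 0.563, 1.01, 1.097 and 1.39 CPM (log2 fold change -2.38 with SE 0.62, adjusted p = 0.0424). Neu2, a sialidase gene that overlaps Ngef, had a log2 fold change of -1.81 (SE 0.49, adjusted p = 0.0472). All of these kept their sign without libraries 1 and 3, and none was then past the threshold.

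Among genes chosen after their values were seen, Aurkb, the kinase of the chromosomal passenger complex, showed the split as well. Aurkb is also on the fixed list of cell division genes. It was at 921, 3.16, 779 and 3.82 CPM at BPA 2.5 and at 16.5, 29.6, 16.1 and 26.7 CPM at BPA 25000 (log2 fold change -4.26 with SE 1.15, adjusted p = 0.0472). Its value in libraries 1 and 3 was not shared by the proliferation marker Mki67, at 19.9, 24.2, 44.9 and 52.96 CPM against 58.9, 44.7, 99.9 and 71.9 CPM. Terf2ip, a telomere protein, was at 932, 65.97, 573 and 49.8 CPM against 46.8, 63.5, 43.8 and 67.8 CPM (log2 fold change -2.87 with SE 0.56, adjusted p = 0.0243). With libraries 1 and 3 left out, the log2 fold change of Aurkb turned to 2.7 (adjusted p = 0.272) and that of Terf2ip was -0.03 (adjusted p = 0.989).

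**Figure D3:**
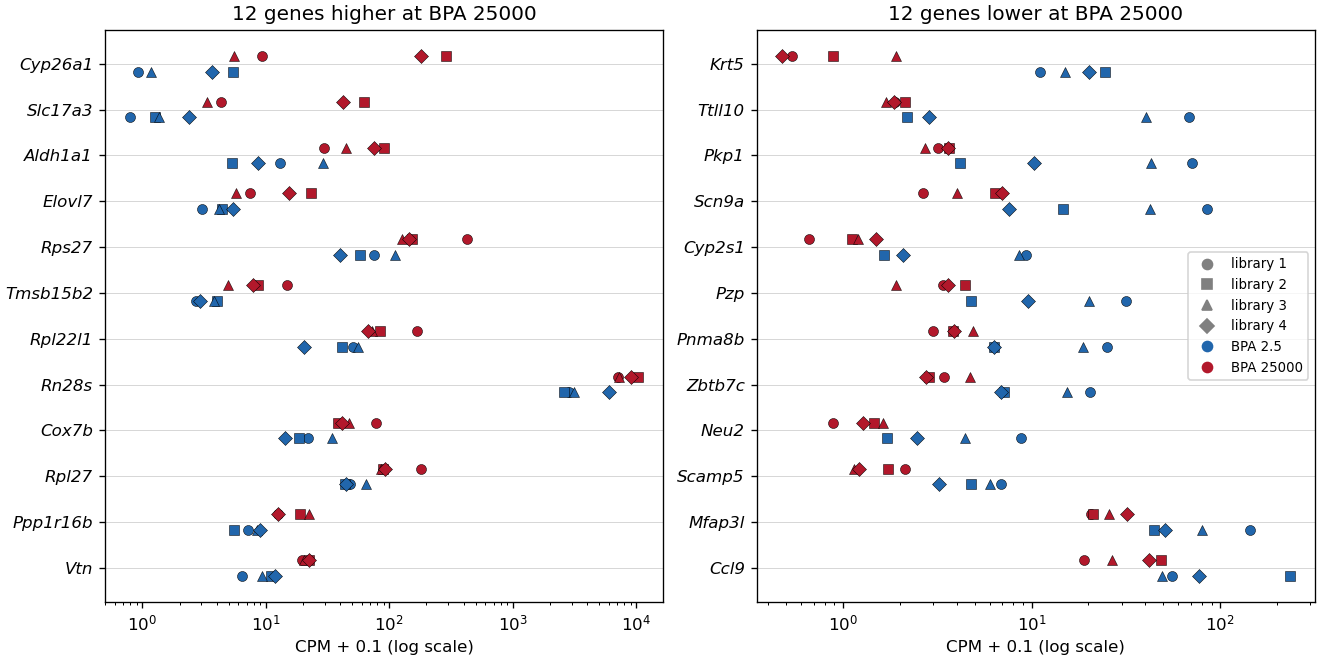
CPM plus 0.1 on a log axis in each of the 8 libraries, blue for BPA 2.5 and red for BPA 25000, with the marker shape for the library number, for the 12 genes with the largest fold change in each direction under the rule for named genes. The groups do not overlap for any of the 24, by the rule. BPA 2.5 libraries 1 and 3 lie at the right for Ttll10, Pkp1 and Scn9a, and BPA 25000 libraries 2 and 4 for Cyp26a1 and Slc17a3.

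A second set of lower genes did not follow that split. Dph3 (NCBI Gene 680594), which helps make diphthamide on elongation factor 2, was at 181, 267, 163 and 176 CPM against 77.4, 109, 73.9 and 101 CPM. All 4 low-dose libraries lay above all 4 high-dose ones, with library 2 the highest (log2 fold change -1.12 with SE 0.2, adjusted p = 0.0243). It passed the threshold in 5 of the 8 fits without 1 library and with BPA 2.5 libraries 1 and 3 left out (log2 fold change -1.27, adjusted p = 0.0335).

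In the 24 libraries outside these groups, 12 other genes correlated with Dph3 at over 0.9 (0.956 to 0.989). The points share library size and scaling, and the correlation is a description. Dph3 was chosen with its values known, while the 12 were picked without the 8 libraries compared here. All 12 were called lower at BPA 25000, beside 2.05% of all genes, with log2 fold changes of -1.47 (Adam30) to -0.78 (Spire1). As they follow Dph3, itself called lower, these calls largely repeat its values and are not 12 separate results. Among them were Gpr37l1, an orphan receptor, at 156, 245, 135 and 159 CPM against 52.1, 92.1, 53 and 85.7 CPM, and Cyp2c6v1, a cytochrome P450 best known from liver, at 104, 168, 89.95 and 106 CPM against 35.7, 56.5, 33.4 and 54.2 CPM. Adam30, a metalloprotease-like gene best known from testis, was at 45.4, 77.5, 39.1 and 45.4 CPM against 15.03, 21.9, 14.8 and 23.4 CPM (log2 fold change -1.47 with SE 0.29, adjusted p = 0.0243). The ratio of Cyp2c6v1 to Dph3 lay between 0.452 and 0.629 in the 8 libraries compared here, and that of Mtrfr, a mitochondrial release factor, between 0.59 and 0.667. Dph3 overlaps Oxnad1 in the annotation, and whether counting used strand is not given in the sources used here.

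The remaining named genes that were lower split less within BPA 2.5. Scamp5, a secretory carrier membrane protein, was at 6.78, 4.696, 5.93 and 3.12 CPM against 2.04, 1.63, 1.04 and 1.12 CPM (log2 fold change -1.81 with SE 0.51, adjusted p = 0.049988). Mfap3l was at 144, 44.3, 79.8 and 50.7 CPM against 20.5, 21.02, 25.7 and 31.9 CPM (log2 fold change -1.69 with SE 0.42, adjusted p = 0.0386) and was highest in BPA 2.5 libraries 1 and 3. Leaving those libraries out gave -1.39 for Scamp5 (adjusted p = 0.359) and -0.91 for Mfap3l (adjusted p = 0.479). Ccl9, a chemokine for myeloid cells, was at 55.8, 234, 48.97 and 76.9 CPM against 18.9, 48.4, 26.5 and 41.7 CPM (log2 fold change -1.62 with SE 0.43, adjusted p = 0.0454), with library 2 far above the rest. Ccl9 was still lower with BPA 2.5 libraries 1 and 3 left out (log2 fold change -2.17, adjusted p = 0.0373), and it had a log2 fold change of -0.84 without BPA 2.5 library 2, passing in 1 of the 8 fits without 1 library.

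Regulators of signalling on the fixed lists gave single calls, where 2.53% of all genes tested were called in either direction. Jund, an AP-1 transcription factor, was at 159, 232, 132 and 154 CPM against 91.9, 94.5, 111 and 86.7 CPM, with no overlap (log2 fold change -0.82 with SE 0.18, adjusted p = 0.0259). It was the 1 of 23 immediate early genes called, and it was still lower with BPA 2.5 libraries 1 and 3 left out (log2 fold change -0.98, adjusted p = 0.0373). Sfrp5, a secreted Wnt antagonist, was at 29.97, 16.01, 25.5 and 12.7 CPM against 6.89, 8.003, 7.63 and 9.12 CPM (log2 fold change -1.41 with SE 0.28, adjusted p = 0.0243) and was the 1 of 31 Wnt genes called, where DESeq2 called 3, all lower. Sfrp5 was highest in BPA 2.5 libraries 1 and 3 and had a log2 fold change of -0.83 without them (adjusted p = 0.265). Nrip1, a corepressor of nuclear receptors and a target of estrogen, was at 337, 264, 246 and 262 CPM against 184, 138, 162 and 186 CPM, again without overlap (log2 fold change -0.73 with SE 0.18, adjusted p = 0.0344). Nrip1 was chosen after its values were seen.

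The largest increase under the rule for named genes was in an enzyme of retinoid breakdown. Cyp26a1 (NCBI Gene 154985), the enzyme that degrades retinoic acid, was at 0.824, 5.31, 1.07 and 3.57 CPM at BPA 2.5 and at 9.14, 289, 5.43 and 180.4 CPM at BPA 25000. By that rule the groups did not overlap, but the gap between BPA 2.5 library 2 and BPA 25000 library 3 was small. BPA 25000 libraries 2 and 4 carried the difference. Cyp26a1 had a log2 fold change of 5.5 (SE 1.44, adjusted p = 0.0426), or of 1.46 with those 2 libraries left out (adjusted p = 0.649). Aldh1a1, which makes retinoic acid from retinal, was at 12.9, 5.23, 28.9 and 8.54 CPM against 29.4, 90.4, 44.7 and 75.02 CPM (log2 fold change 2.11 with SE 0.55, adjusted p = 0.0426). It was higher also with BPA 2.5 libraries 1 and 3 left out (log2 fold change 3.15, adjusted p = 0.0431), but not past the threshold without BPA 25000 libraries 2 and 4, where it was highest (1.43, adjusted p = 0.265).

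These were the 2 of 18 tested retinoid genes that edgeR called, both higher, beside 0.481% of all genes called higher. DESeq2 called 2 higher and 2 lower, Aldh1a3 and Rbp2 (adjusted p = 0.00633 and 0.0143). The list's median difference in mean log2 CPM was -0.10, and the median of its fitted log2 fold changes 0.03. Aldh1a3, which makes retinoic acid as well, went the other way without passing in edgeR, at 28.7, 0.308, 17.6 and 0.765 CPM against 0.7798, 1.63, 1.48 and 1.23 CPM (adjusted p = 0.0537), and was high in BPA 2.5 libraries 1 and 3. Rbp2, a retinol-binding protein, was at 7.48, 0.539, 9.46 and 4.53 CPM against 0.0866, 0.169, 1.32 and 0.3201 CPM (adjusted p = 0.0782). The promoter of Cyp26a1 is printed because it holds the letters of a retinoic acid response element, a repeat of AGTTCA with 5 bases between the copies. The window is chr1:244883622-244883821 on the plus strand of GRCr8 from RefSeq, the 200 bases before the start, and the capitals mark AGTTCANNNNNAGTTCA (N for any base) as read from the other strand, 92 to 76 bases before the start.
Cyp26a1: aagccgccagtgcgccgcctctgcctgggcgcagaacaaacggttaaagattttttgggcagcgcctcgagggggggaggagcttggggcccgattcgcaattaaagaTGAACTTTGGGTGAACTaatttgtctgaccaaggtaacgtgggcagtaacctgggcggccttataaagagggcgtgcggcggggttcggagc
In the windows of 300 bases, searched on both strands, this repeat was in 3 of 33469 promoters (0.00896%), and Cyp26a1 was the 1 of 10688 tested genes with it. Only these exact letters were searched, so the counts do not tell how common other forms of the element are.

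Several secreted or membrane proteins were high in the same pair of high-dose libraries, 2 and 4. Of those given here, F3 and Plau were chosen after their values were seen. Slc17a3, an anion transporter, was at 0.697, 1.15, 1.27 and 2.29 CPM against 4.202, 61.9, 3.24 and 42.2 CPM (log2 fold change 4.35 with SE 1.15, adjusted p = 0.0436). F3, tissue factor, which starts coagulation, was at 160.2, 253, 198 and 164 CPM against 593, 3056, 118 and 2163 CPM, and its high-dose library 3 lay below the low-dose group (log2 fold change 2.94 with SE 0.65, adjusted p = 0.0243). Plau, the urokinase plasminogen activator, was at 18.6, 44.03, 16.7 and 37.8 CPM against 73.1, 303, 36.3 and 200.03 CPM (log2 fold change 2.39 with SE 0.52, adjusted p = 0.0243). Elovl7, a fatty acid elongase, was at 2.92, 4.31, 4.06 and 5.35 CPM against 7.36, 22.9, 5.65 and 15.2 CPM (log2 fold change 1.62 with SE 0.42, adjusted p = 0.0426). Without BPA 25000 libraries 2 and 4 the log2 fold changes of Slc17a3, F3, Plau and Elovl7 were 1.46, 0.88, 0.91 and 0.66 (adjusted p = 0.572, 0.494, 0.384 and 0.499).

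A few members of the fixed lists, picked with their values known, had the same high libraries and did not pass. Spp1, osteopontin, an adhesion protein that progesterone raises in the lining, was at 55.4, 142, 115 and 48.8 CPM against 115, 1421, 211 and 871 CPM (log2 fold change 2.86 with SE 1.04, adjusted p = 0.134). Igfbp1, an IGF-binding protein of decidual cells, was at 2.34, 9.85, 3.73 and 9.94 CPM against 5.16, 119.9, 1.701 and 75.3 CPM (log2 fold change 2.97 with SE 1, adjusted p = 0.104). Ptgs2, the inducible prostaglandin synthase, was at 10.6, 7.77, 14.6 and 9.81 CPM against 21.6, 82.2, 18.9 and 53.4 CPM (log2 fold change 2.04 with SE 0.6, adjusted p = 0.0624). Hsd11b1, which regenerates active glucocorticoid, was at 20.5, 90.2, 12.3 and 66.2 CPM at BPA 25000 and had an adjusted p of 0.137. Pgr itself had the reverse order in the high-dose group, at 203, 72.1, 209 and 78.7 CPM, lowest in libraries 2 and 4, and at 108, 122, 89.8 and 181 CPM at BPA 2.5. Of the 18 tested progesterone-response genes on the fixed list, 11 lay above 0 and 7 below, with a median difference of 0.18.

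**Figure D4:**
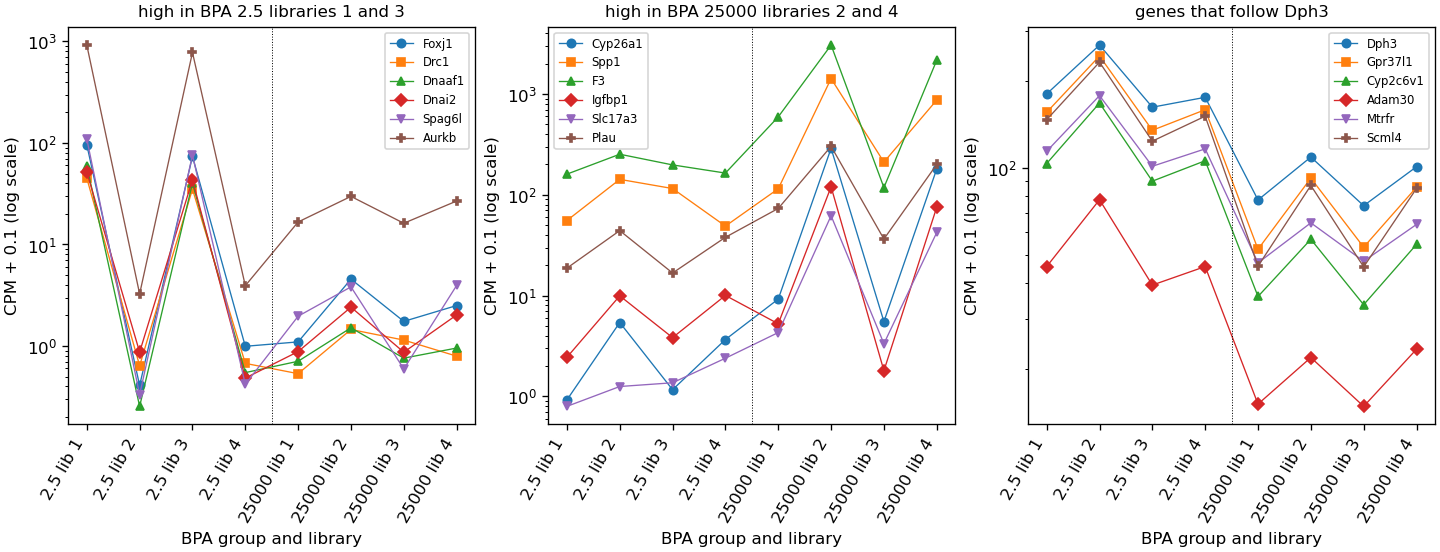
CPM plus 0.1 on a log axis in the 8 libraries, 1 line per gene, BPA 2.5 at the left of each panel and BPA 25000 at the right; lines join libraries for reading only. In the first panel, cilia genes and Aurkb are high in BPA 2.5 libraries 1 and 3, with Foxj1 at 95.8 and 73.6 CPM. In the second, Cyp26a1 and the genes beside it are high in BPA 25000 libraries 2 and 4, and in the third, Dph3 and 5 genes that follow it are all higher at BPA 2.5.

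Genes of the respiratory chain and of the cytosolic ribosome lay above 0 in every list member tested, with few calls. Cox7b, a subunit of cytochrome c oxidase, was at 21.9, 18.5, 34.1 and 14.2 CPM against 77.8, 37.98, 47.02 and 41.5 CPM (log2 fold change 1.2 with SE 0.28, adjusted p = 0.0279). By the rule for named genes the groups did not overlap, and BPA 25000 library 1 was the highest. Cox7b was higher also with BPA 2.5 libraries 1 and 3 left out (log2 fold change 1.67, adjusted p = 0.0373). Cox7c, of the same complex, was at 88.02, 91.5, 103 and 41.5 CPM against 299, 134, 142 and 112 CPM (log2 fold change 1.08 with SE 0.29, adjusted p = 0.0479). Ndufb8, a complex I subunit that is not on the list and was picked with its values known, was at 50.4, 41.8, 49.2 and 44.7 CPM against 118, 80.6, 63.4 and 85.5 CPM (log2 fold change 0.9 with SE 0.2, adjusted p = 0.0243). Of 29 respiratory chain genes tested, 2 were called higher and 0 lower, 17 were higher at an unadjusted p under 0.05, and all 29 lay above 0. Over all genes 0.481% were called higher, 6.22% were higher at an unadjusted p under 0.05, and 6581 of 13312 lay above 0. The respiratory chain list's median difference in mean log2 CPM was 0.65. Its summed CPM was 979 to 1663 at BPA 2.5, 1639 to 2515 at BPA 25000 and 1957 to 3160 in the vehicle controls.

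Ribosomal protein genes gave nearly the same numbers. Rps27 was at 75.7, 57.7, 112 and 39.8 CPM against 423, 152, 128 and 145 CPM (log2 fold change 1.57 with SE 0.41, adjusted p = 0.0424), and Rpl22l1, a paralog of a large subunit protein, at 50.3, 41.2, 56.1 and 20.3 CPM against 167, 83.7, 72.3 and 66.8 CPM (log2 fold change 1.22 with SE 0.34, adjusted p = 0.0491). Rpl27 was at 48.2, 43.9, 64.6 and 44.2 CPM against 182, 88.3, 85.4 and 92.2 CPM (log2 fold change 1.16 with SE 0.3, adjusted p = 0.0426). BPA 25000 library 1 was far above the other three for each, and without it the log2 fold changes fell to 0.99, 0.82 and 0.82. Of 30 listed ribosomal genes, 2 (Rps27 and Rpl22l1) were called higher and 0 lower, 17 were higher at an unadjusted p under 0.05, all lay above 0, and the median was 0.64. The list's summed CPM overlapped between the groups, at 7555 to 13810 and 13382 to 18128, and was 13084 to 22395 in the vehicle controls. Ribosomal protein genes have many near-identical pseudogene copies, so their counts are uncertain. The medians of the fitted log2 fold changes, 0.60 and 0.59 for the 2 lists, were 0.61 and 0.59 with rRNA genes left out before scaling, and 0.43 and 0.43 without BPA 25000 library 1.

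Ribosomal RNA counts were higher as well. Rn28s, the 28S ribosomal RNA gene, was at 2840.5, 2591, 3111 and 5979 CPM against 7091, 10314, 7201 and 9052 CPM (log2 fold change 1.21 with SE 0.34, adjusted p = 0.049969). The 3 rRNA genes in the table took 1.39% to 3.9% of counts at BPA 2.5 and 3.73% to 6.12% at BPA 25000. They took 3.04% to 3.96% in the vehicle controls and 2.24% to 7.45% at BPA 2500. The share of rRNA that a library keeps depends on how it was prepared, and its part in these differences was not tested.

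Vtn (NCBI Gene 29169), vitronectin, an adhesion protein of plasma and matrix, had the smallest p of the genes called higher. It was at 6.34, 10.9, 9.13 and 11.7 CPM against 19.5, 22.1, 20.2 and 22.4 CPM, and the lowest high-dose library lay well above the highest low-dose one. A lack of overlap was part of the rule that named Vtn. Its log2 fold change was 1.15 (SE 0.2, adjusted p = 0.0243), with means of 9.496 ± 2.36 and 21.04 ± 1.44 CPM (SD, n = 4). It passed the threshold in 5 of the 8 fits without 1 library, and leaving out BPA 2.5 libraries 1 and 3 gave a log2 fold change of 0.93 (adjusted p = 0.0599). Ppp1r16b, a phosphatase subunit abundant in endothelium, was at 7.098, 5.47, 8.33 and 8.795 CPM against 12.5, 18.9, 22.2 and 12.4 CPM (log2 fold change 1.15 with SE 0.26, adjusted p = 0.0265). Tmsb15b2, a beta-thymosin that binds actin monomers, was at 2.598, 3.93, 3.73 and 2.804 CPM against 14.8, 8.51, 4.83 and 7.74 CPM (log2 fold change 1.46 with SE 0.38, adjusted p = 0.0395).

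Vessel and alarm genes chosen after their values were seen were called higher too. Rgs5, a marker of pericytes, was at 14.4, 37.6, 16.1 and 23.1 CPM against 63.1, 68.5, 31.1 and 58.6 CPM (log2 fold change 1.28 with SE 0.27, adjusted p = 0.0243), and Angpt2, a vessel-remodelling ligand, at 11.4, 21.02, 13.6 and 14.1 CPM against 28.1, 34.1, 17.4 and 31.5 CPM (log2 fold change 0.89 with SE 0.23, adjusted p = 0.0426). Il33, an alarm cytokine of epithelium and endothelium, was at 73.9, 131, 104 and 70.2 CPM against 171, 162, 152 and 179.9 CPM, without overlap (log2 fold change 0.81 with SE 0.22, adjusted p = 0.0491). Rgs5 overlapped by 1 library, BPA 25000 library 3, as did Angpt2. Of 15 endothelial genes on the fixed list, 0 were called in either direction by edgeR or by DESeq2, with a median difference of 0.27. At an unadjusted p under 0.05, 4 of them were higher, beside 6.22% of all genes tested.

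None of the 25 tested genes on the estrogen-response list passed edgeR's test between the doses. Esr1 was at 177, 143, 130.5 and 160.4 CPM against 145, 171, 131 and 158 CPM (log2 fold change -0.01 with SE 0.22, adjusted p = 0.983), and Esr2 was at or below 0.907 CPM in every library. Igf1, an estrogen-induced growth factor, was at 80.1, 105, 103 and 129.8 CPM against 198, 54.4, 149.7 and 76.1 CPM, with overlapping groups (log2 fold change 0.19 with SE 0.41, adjusted p = 0.865). S100g, a calcium-binding protein that estrogen raises in rat uterus, was at 42.1, 44.9, 101 and 203 CPM against 428, 77.3, 214 and 105 CPM (log2 fold change 1.08 with SE 0.75, adjusted p = 0.49). C3, complement component 3, and Lcn2, lipocalin 2, had log2 fold changes of 0.19 (SE 0.67, adjusted p = 0.925) and -0.43 (SE 1.08, adjusted p = 0.89). Ltf, lactoferrin, was at 4.63, 0.847, 4.598 and 1.34 CPM against 0.477, 0.394, 1.15 and 0.267 CPM, with overlap at 1 library (log2 fold change -2.31 with SE 1, adjusted p = 0.22). On that list edgeR called 0 in either direction, and DESeq2 called 1 higher. At an unadjusted p under 0.05, 2 were higher and 2 lower, beside 6.22% and 11.2% of all genes tested. The list's median difference was 0.04, and Greb1 was not analysed here. Pgr had a log2 fold change of 0.17 (SE 0.35, adjusted p = 0.863). Of 18 progesterone-response genes 1 was called, Cyp26a1, beside 2.53% of all genes in either direction.

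Cell division genes stood mostly above 0 without calls. Of 27, 24 lay above 0, 9 were higher at an unadjusted p under 0.05 and the median difference was 0.71, but the 1 call was Aurkb, lower. Among all genes tested 6581 of 13312 lay above 0, 6.22% were higher at an unadjusted p under 0.05 and 2.05% were called lower. Mki67 had a log2 fold change of 0.95 (SE 0.5, adjusted p = 0.325), and Ccnb2, a mitotic cyclin, was at 2.47, 2.46, 3.33 and 3.63 CPM against 6.59, 4.62, 15.6 and 11.7 CPM (log2 fold change 1.69 with SE 0.58, adjusted p = 0.116). Ccnb2 did not overlap between groups. DESeq2 called 1 of the 27 higher and Aurkb lower.

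Mast cell genes lay mostly below 0, 10 of 13 with their eosinophil partners. Cma1, a mast cell chymase, was at 3.49, 2.85, 2.599 and 0.574 CPM against 0.433, 0.394, 0 and 0.747 CPM (log2 fold change -2.56 with SE 0.77, adjusted p = 0.066), and of 13 tested eosinophil and mast cell genes edgeR called 0, with 3 lower at an unadjusted p under 0.05, and DESeq2 called 1 lower. The median was -0.98, or -0.48 without BPA 2.5 libraries 1 and 3. The summed CPM of this list was 91.5 to 138 at BPA 2.5, 66.9 to 80.8 at BPA 25000 and 21.8 to 188 in the vehicle controls. Among all genes tested 11.2% were lower and 6.22% higher at an unadjusted p under 0.05. Of 18 matrix metalloproteinase and inhibitor genes, edgeR called 0, with 6 higher and 1 lower at an unadjusted p under 0.05, and DESeq2 called 1 lower. Among them Mmp14, a membrane collagenase, was at 246, 697, 314 and 551 CPM against 1020.1, 799, 395 and 799.8 CPM and Timp4, an inhibitor, at 17.6, 5.85, 11.1 and 1.15 CPM against 1.34, 3.83, 0.439 and 2.35 CPM without a call for either. Their log2 fold changes were 0.74 (SE 0.27, adjusted p = 0.133) and -2.17 (SE 0.62, adjusted p = 0.055). Nr1i2, the pregnane X receptor, a xenobiotic sensor, was at 4.25, 12.8, 3.398 and 31.9 CPM against 0.3899, 0.564, 0 and 0.3201 CPM, without overlap (log2 fold change -5.32 with SE 1.54, adjusted p = 0.0602), and BPA 2.5 library 4 was the highest. Nr1i2 overlaps Gsk3b in the annotation.

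The other groups place each end of the range. For Krt5 the low dose was the outlying one: means were 0.0605 ± 0.0815 CPM in the vehicle controls, 1.398 ± 0.647 at BPA 25, 0.1703 ± 0.1199 at BPA 250 and 0.6796 ± 0.392 at BPA 2500 (SD, n = 4 each). Foxj1 was likewise at 0.2504 ± 0.413 CPM in the controls, and at 6.62 ± 2.17, 1.21 ± 1.202 and 12.9 ± 17.3 CPM at the middle doses. Jund was at 91.1 ± 13.2 CPM in the controls and Sfrp5 at 8.77 ± 1.501 CPM, both near the high-dose means of 96.02 ± 10.6 and 7.91 ± 0.932 CPM. Cox7b was at 71.2 ± 23.1 CPM in the controls, above both ends. For Vtn and Dph3 the high dose lay farther from the controls: Vtn was at 12.4 ± 2.28 CPM in the controls and 15.9 ± 2.64 CPM at BPA 2500, and Dph3 at 165 ± 16.7 and 105 ± 26.96 CPM. Cyp26a1 was at 0.233 ± 0.169 CPM in the controls, below both ends, and its mean was 80.6 ± 99.04 CPM at BPA 250 and 60.1 ± 67.9 CPM at BPA 2500, with SDs above the means.

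Of the 273 genes called lower, the control mean was nearer to BPA 25000 than to BPA 2.5 in 225, and that of BPA 2500 in 216, BPA 250 in 212 and BPA 25 in 140. Of the 64 called higher, the counts were 34 for the controls and 58, 48 and 38 for BPA 2500, 250 and 25. The mean fell at each step of the 5 doses in 37 of the 273 and rose at each step in 11 of the 64. These counts use the genes chosen by the contrast of the end doses and are descriptions.

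**Figure D5:**
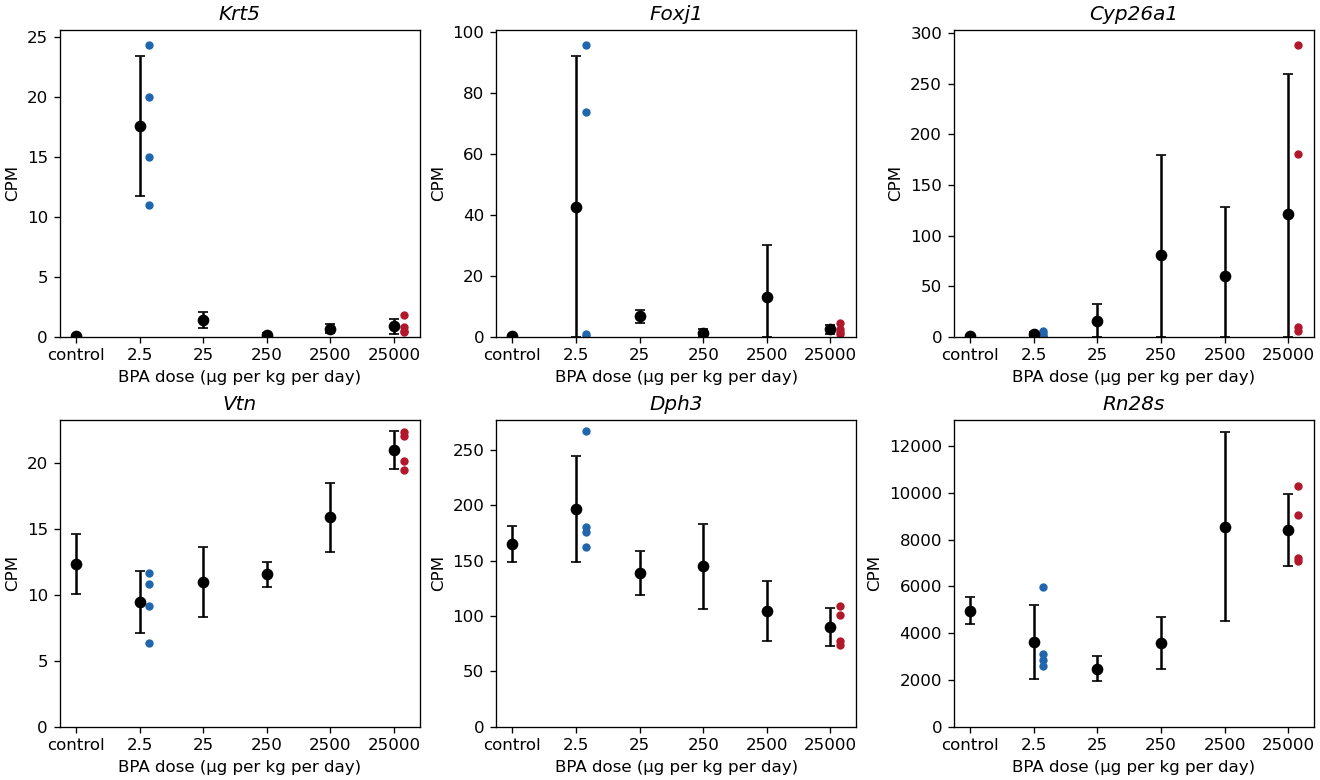
Mean CPM with SD (black, n = 4 libraries per group; bars that would pass below 0 end at 0) in the vehicle controls and the 5 BPA doses, evenly spaced, with the single libraries of BPA 2.5 (blue) and BPA 25000 (red) beside their means. Krt5 is high only at BPA 2.5 among these 6 groups, at 17.6 CPM, while Vtn is highest and Dph3 lowest at BPA 25000, at 21.04 and 90.3 CPM.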

How the data were processed

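RNA of whole rat uterus was sequenced, and the authors deposited raw counts per gene as whole numbers in 1 table. The submitters' processing notes list bcl2fastq, TopHat, edgeR and build rn5, without versions, annotation or strand setting. Symbols came from RefSeq on GRCr8 for 17167 of 17327 identifiers, and the 160 others held 1.82% of counts. With edgeR 4.0.16 in R 4.3.3, filterByExpr (minimum count 10, total 15) kept 13312 genes, TMM scaled them, and a quasi-likelihood model with 1 mean for each of 8 groups was fitted over 32 libraries. P-values were adjusted over all genes by Benjamini-Hochberg, with a threshold of 0.05. The SE of a log2 fold change is its size divided by the square root of the quasi-likelihood F statistic. It restates that test and is not a separate measure of precision. Alternatives used DESeq2 1.42.0, limma 3.58.1, other filters and scalings, and each library left out. No 2 libraries were identical. The steps were tested on simulated counts. Members, lists and rules were chosen with earlier results of these data known. The named genes passed the threshold, had a mean log2 CPM of at least 1 and did not overlap between the groups: the 12 largest changes each way were taken, of 41 higher and 108 lower that qualified. A fixed panel and up to 4 members of each of 37 lists were added, part of which is not named. List medians are of differences in mean log2 CPM (prior count 2). Floors of 3 counts cover counting error only.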

Additional observations from a re-analysis of the deposited data

Results flagged for a closer look

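Within each group of 4 libraries, the gene values named in the text were checked for a single library whose gap to the next was past the critical value of Dixon's test at 4 samples. Of 196 groups checked 16 (8.16%) held one. About 1 in 20 is the rate for independent, normally spread values. CPM of related genes in the same libraries need not be such values, so the 2 rates cannot be compared directly. BPA 25000 library 1 was the one apart for Rps27 (423 CPM), Rpl22l1 (167 CPM), Rpl27 (182 CPM), Rps14 (514 CPM) and Cox7c (299 CPM), highest in each. BPA 2.5 library 4 was apart and highest for Rn28s (5979 CPM), Rn45s, the ribosomal RNA precursor gene (30688 CPM), Lcn2 (202 CPM) and Aqp5, a water channel of glands (66.98 CPM). BPA 2.5 library 2 was highest for Ccl9 (234 CPM), Tyms, thymidylate synthase (15.6 CPM), and Adam30 (77.5 CPM), and lowest for Cxcl10 (4.62 CPM). BPA 25000 library 3 was lowest for Rn45s (25709.8 CPM) and Hba-a2 (40.99 CPM), and BPA 25000 library 2 highest for Krt14 (0.507 CPM).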

How the results depend on the processing

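The main counts, 337 genes with 64 higher and 273 lower, moved by less than 1.5 times when edgeR used the size factors of DESeq2, when low counts were not filtered (232), when 1 CPM was required in 4 libraries, when the spread was robust and when rRNA genes were left out. They were 722, 173 and 549 with DESeq2 and 3417, 1277 and 2140 with limma voom and sample weights. A threshold of 0.1 gave 758, 187 and 571. With only the 2 groups in the fit they were 0, 0 and 0 (1371 at an unadjusted p under 0.05, while DESeq2 and voom were run over all 8 groups only), and with only the 5 BPA groups 1, 0 and 1. The higher calls were 19% of all calls, 37.4% with voom and 63.5% without BPA 2.5 libraries 1 and 3. Leaving out each library in turn gave 0 to 807 genes, 0 to 127 higher and 0 to 683 lower. Fits added after the data were seen gave 74, 47 and 27 without BPA 2.5 libraries 1 and 3, 74, 38 and 36 when BPA 25000 library 3 and BPA 250 library 1 went as well, and 15, 2 and 13 without BPA 25000 libraries 2 and 4. None of the 64 and 273 calls held without each single library, while 64 and 195 of them kept their sign in every alternative that gave them a fold change. Apart from fits with fewer libraries, the cause of these differences was not tested. No paired analysis was possible because the labels give the groups no shared replicate numbers: library numbers here are the order of deposit.

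Signs turned for some uncalled genes. Across fits without 1 library the log2 fold change ran from -0.08 to 0.07 for Esr1, -0.98 to 0.35 for Esr2, -0.09 to 0.4 for Pgr, -0.16 to 0.43 for Igf1, -0.06 to 0.74 for C3, -0.88 to 0.22 for Lcn2, -0.37 to 0.05 for Acta2 and -0.21 to 0.78 for Adipoq. With voom it was 0.15 for Esr1, -0.27 for Pgr, -0.42 for Igf1, 0.43 for Lcn2, 0.51 for Acta2 and -0.08 for Adipoq, and without a filter 0.01 for Esr1. Without BPA 2.5 libraries 1 and 3 it turned to 0.02 for Esr1, 0 for Esr2, -0.08 for Pgr, -0.25 for C3, 0.34 for Esrrg, 1.98 for Foxj1, 0.68 for Drc1, 1.53 for Dnaaf1, 0.33 for Cfap52, 2.78 for Dnai1, 1.35 for Dnai2, 3.16 for Spag6l, 1.36 for Aqp4, 2.7 for Aurkb, 0.75 for Cidec, 0.88 for Plin1, 0.01 for Lypd3, 1.26 for Aldh1a3, 0.19 for Mzb1 and 0.1 for Ehf. Among these, Drc1, Dnaaf1, Cfap52, Dnai1, Dnai2, Aqp4 and Aurkb had been called. Without BPA 25000 libraries 2 and 4 it was -0.39 for C3, -0.9 for Igfbp1 and -0.51 for Lifr. The depth of the BPA 2.5 libraries limits genes near 0.229 CPM, such as Esr2.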

Other observations

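Gene groups that gave no call by edgeR are described by counts, beside 6.22% of all genes higher and 11.2% lower at an unadjusted p under 0.05 and a median difference in mean log2 CPM of -0.005. Of 20 interferon-response genes, 19 lay above 0 at BPA 25000 (median 0.33), with 2 higher and 0 lower at an unadjusted p under 0.05, and DESeq2 called 1 higher. Cxcl10, an interferon-induced chemokine, was at 8.62, 4.62, 9.13 and 9.11 CPM at BPA 2.5 and 17.03, 29.6, 9.05 and 20.6 CPM at BPA 25000 (edgeR log2 fold change 1.27 (SE 0.39, adjusted p = 0.0683)). Of 18 T and NK lymphocyte genes 15 lay above 0 (median 0.47, 2 higher), of 16 macrophage genes 11 (median 0.35, 5 higher), and of 13 neutrophil genes 10 (median 0.52, 1 higher). Without BPA 2.5 libraries 1 and 3 the medians of these lists were 0.262, 0.165 and 0.15. Gpnmb, a glycoprotein of lipid-laden macrophages, was at 82.4, 184, 138 and 109 CPM against 275, 352, 134 and 278 CPM. BPA 25000 library 3 was the lowest of its group for Gpnmb, and the summed CPM of the macrophage list was 730 there and 2353 to 2632 in the other three, beside 1017 to 1932 at BPA 2.5.

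Collagens were above 0 in 16 of 18 genes (median 0.40, 2 higher), stroma in 11 of 14 (median 0.21) and smooth muscle in 12 of 19 (median 0.15). Without BPA 2.5 libraries 1 and 3 these medians were -0.20, -0.08 and -0.34. Glandular and luminal genes lay below 0 in 18 of 24 (median -0.26, 4 lower). Of 9 red blood cell genes 7 lay below 0 (median -0.58, 3 lower). Without BPA 2.5 libraries 1 and 3 the medians of these 2 lists were 0.003 and 0.037. The alpha globin genes Hba-a1 and Hba-a2, near-identical copies whose reads may be split, were at 108, 51.7, 199 and 141 and 103, 46.1, 180.3 and 124 CPM at BPA 2.5 and at 93.2, 86.2, 45.3 and 80.8 and 78.02, 75.2, 40.99 and 73.8 CPM at BPA 25000. Of 6 B and plasma cell genes 5 lay below 0 (median -0.60, 2 lower), and Mzb1, a plasma cell chaperone, was at 3.36, 0.385, 3.398 and 0.255 CPM against 0.173, 0.338, 0.878 and 0.0534 CPM. Medians for nuclear receptors (22 genes), steroid metabolism (16), xenobiotic conjugation (20), the IGF system (16), endometrial cancer genes (18), DNA methylation enzymes (12), the circadian clock (15), cholesterol synthesis (20) and chemokines (22) were -0.13, -0.03, 0.03, 0.05, -0.06, 0.002, -0.13, 0.01 and 0.15. Those for ovary (7 genes), skeletal muscle (5) and mesothelium (5) were -0.16, -0.23 and -0.40. DESeq2 called 1 gene higher in each of the neutrophil and IGF system lists and 1 lower in each of the glandular, red blood cell and nuclear receptor lists.

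Some genes did not pass and are given as values. Lifr, the receptor of the implantation cytokine LIF, was at 60.5, 80.7, 49.7 and 39 CPM against 39.6, 195, 40.8 and 151 CPM, and Abcb1a, a drug efflux pump, at 60.8, 57.7, 52.9 and 41.2 CPM against 54.4, 178, 75.8 and 128 CPM, both highest in BPA 25000 libraries 2 and 4. Of the Wnt genes, the receptor gene Fzd10 was at 121, 19.6, 70.96 and 12.4 CPM against 12.8, 9.69, 17.5 and 17.7 CPM and the ligand gene Wnt5b at 36.2, 25.2, 35.6 and 23.96 CPM against 14.7, 15.6, 18.3 and 17.5 CPM, the latter without overlap (edgeR adjusted p = 0.068). Myc, a growth regulator that estrogen induces, was at 27.5, 24.2, 27.9 and 32.9 CPM against 49.7, 48.9, 46.2 and 40.3 CPM, also without overlap (edgeR log2 fold change 0.72 (SE 0.21, adjusted p = 0.059)).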
